A study of Homo sapiens with 12 samples.

Results

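The RB pathway decides whether a cell leaves G1 and enters S phase. The following 10 genes of it were described here: RB1, RBL1, RBL2, CCND1, CCNE1, CCNE2, CDK4, CDK6, CDKN1B and CDKN2C. They were taken by symbol from a list of regulators, by a rule that names no measured value. Still, this list and the other gene lists used below were chosen with earlier results of these data known. All 10 genes were found among the 17508 genes with deposited counts. The counts come from TYK-nu cells, an established line of high-grade serous ovarian cancer, grown with 15 μM cisplatin or with its solvent DMSO for 24 or 72 h. Cisplatin is a platinum drug that cross-links DNA. Each of the 4 groups (DMSO 24 h, cisplatin 24 h, DMSO 72 h and cisplatin 72 h) had 3 libraries of poly(A)-selected RNA, 12 in all. The labels name no transgene or deletion in any group, and all groups are the same line. The comparisons below ask how the genes differed between 24 and 72 h in each medium and between cisplatin and DMSO at each time.

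Pocket proteins, encoded by RB1, RBL1 (p107) and RBL2 (p130), bind E2F transcription factors and hold the genes of DNA replication in check. D-type cyclins such as cyclin D1 (CCND1) with the kinases CDK4 and CDK6, and then E-type cyclins (CCNE1, CCNE2) with CDK2, phosphorylate the pocket proteins and release E2F. CDKN1B (p27) and CDKN2C (p18) restrain these kinases, and RBL1, CCNE1 and CCNE2 are themselves known targets of E2F.

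For each gene the files give fragments counted in exons, which stand mostly for spliced RNA, and fragments counted in introns, which stand mostly for RNA not yet spliced. Levels are given as CPM, which are counts scaled so that all exon and intron counts of a library sum to 1000000. Library totals were 18526830 to 36911333 counts in the 24 h groups, 26921033 to 44713703 in DMSO 72 h and 31908403 to 68753262 in cisplatin 72 h. Introns held 6.26% to 7.17% of the counts of a library. Of the serous and epithelial markers, KRT18 had 3049 to 9642 exon counts per library, KRT8 207 to 2210, WT1 41 to 170, EPCAM 2 to 83, KRT7 0 to 8, PAX8 0 to 2 and SOX17 0. The lineage marker PAX8 was thus near 0 in a line labelled as serous ovarian cancer. Of the markers of leukocytes and endothelium, PTPRC was at 0, CD3E had 6 to 45 and VWF 0 to 53 exon counts, while PECAM1 had 34067 to 90727. Levels of KRT8 and PECAM1 moved with time. In DMSO the mean of KRT8 was 12.2 CPM at 24 h and 30.1 at 72 h, and that of PECAM1 2278 and 1293. Changes of the other markers with time are not given here. The part of these markers in the results was not tested. The study's methods describe TYK-nu cells grown in triplicate. Neither they nor the labels say whether these were separate cultures, so p-values measure the spread between these libraries, which may be technical. In bulk RNA, fewer cells with a transcript and less transcript per cell cannot be told apart.

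Between 24 and 72 h, in DMSO and in cisplatin alike, the same 5 genes fell in exon counts (CCNE2, RBL1, CCNE1, CDKN2C and CCND1) and the same 2 rose (RBL2 and CDKN1B). These are 7 of 10 genes, while 65.1% of all genes tested were called in DMSO and 63.5% in cisplatin. CDK4, CDK6 and RB1 did not pass the test at either comparison. CCNE2 fell most, 5.08-fold in DMSO and 5.20-fold in cisplatin. Between cisplatin and DMSO, 0 of the 10 genes passed the test in exon or intron counts by edgeR at either time, and 1 (CDK6 exon counts at 72 h) had an unadjusted p under 0.05. Over all genes, 0.00% to 0.0416% passed the test in these comparisons, and 12.6% had an unadjusted p under 0.05 in exon counts at 72 h. RB1 itself was barely seen in exons, with 2 to 19 counts per library.

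Sequences before the start site are shown for 3 genes that changed with time, because E2F and the pocket proteins act at promoters. They come from RefSeq (GRCh38.p14), on the strand of the gene, and end at the base before the start site. RBL1 and CCNE1 are known E2F targets that fell together, and CDKN1B rose. The start site used for CDKN1B lies inside the annotated gene, downstream of its first base. Capitals in RBL1 mark the E2F-type words TTTCGCGC and TTTGGCGC, and capitals in CCNE1 and CDKN1B mark the GC box GGGCGG, each searched on both strands.
RBL1, chr20:37095998-37096147, minus strand: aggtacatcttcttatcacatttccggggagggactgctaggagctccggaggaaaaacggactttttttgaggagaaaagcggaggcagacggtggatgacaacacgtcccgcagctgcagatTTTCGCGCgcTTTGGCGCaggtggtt
CCNE1, chr19:29811841-29811990, plus strand: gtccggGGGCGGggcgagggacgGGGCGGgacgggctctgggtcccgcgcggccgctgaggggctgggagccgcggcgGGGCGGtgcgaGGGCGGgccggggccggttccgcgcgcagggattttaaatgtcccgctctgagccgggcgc
CDKN1B, chr12:12717218-12717367, plus strand: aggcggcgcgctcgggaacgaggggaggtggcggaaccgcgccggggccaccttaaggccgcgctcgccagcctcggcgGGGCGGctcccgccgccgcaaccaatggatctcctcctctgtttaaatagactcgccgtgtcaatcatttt

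RBL1 held both E2F-type words, which begin 26 and 16 bases before the start site and do not overlap. Windows around a start site (250 bases before it to 50 after) were searched for 8 of the 10 genes. RBL1 was the 1 gene of these 8 with such a word. No window of CCND1 or CCNE2 was searched. Windows on chr8, where CCNE2 lies, were left out of the gene lists but not out of the count of all windows. A gene can have several windows, so shares are given per window. Such a word stood in 1 of the 12 windows of the 8 genes (8.33%) and in 403 of all 35116 windows (1.15%). It was found in 4 of 57 windows (7.02%) of the other RB pathway and G1 genes, 1 each for CDC25A, E2F1, E2F2 and TFDP1, and in 4 of 14 windows (28.6%) of a list of E2F target genes, 1 each for CDC6, MCM2, MCM3 and POLA1. GC boxes stood in 7 of the 12 windows (58.3%), of CCNE1, CDK4, CDK6, CDKN1B, CDKN2C and RBL2, and in 45.0% of all windows. These are matches of letters only. CCNE1, an E2F target, had no match to those 2 words in its window, which says nothing about other forms of the site.

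Among the pocket protein genes, RB1 lies at chr13:48303744-48599436 on the plus strand (GRCh38), with 6434 exonic and 289259 intronic bases. Its exon counts were 12, 6 and 8 in DMSO 24 h, 2, 9 and 6 in cisplatin 24 h, 4, 6 and 13 in DMSO 72 h, and 18, 19 and 7 in cisplatin 72 h. The groups overlapped, and 1 library held 2 counts, less than the 3 that a count of 0 allows. Its intron counts were higher, with 43, 39 and 32 in DMSO 24 h, 47, 61 and 20 in cisplatin 24 h, 34, 23 and 51 in DMSO 72 h, and 71, 112 and 46 in cisplatin 72 h. Summed over the 12 libraries, RB1 had 110 exon and 579 intron counts, an exon/intron ratio of 0.190. Only 3.13% of 9401 genes with at least 100 summed intron counts had a lower ratio, and the median gene had 13.9. Set per base, RB1 exons were covered 8.54 times as densely as its introns, against 63.7 times in the median gene, and 19.2% of genes were lower. Lengths here and below are of GENCODE release 44, while reads were counted on Ensembl release 98. The effect of this difference on values per base or per kb was not tested. None of its exonic bases lies in an exon of another gene. The intron counts are less certain, since 3 genes on the same strand and 8 on the opposite strand overlap the locus.

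RBL1 (chr20:36996349-37095997, minus strand) and RBL2 (chr16:53433977-53491648, plus strand) had far more exon counts than RB1. Per kb of exon, RB1 averaged 0.0412 CPM over the 12 libraries, RBL1 6.66 and RBL2 14.1. On this scale RB1 was at the 19.2nd percentile of 13134 genes with counts, RBL1 at the 62.6th and RBL2 at the 77.0th. These are levels of counted fragments, and how far the exon counting rule set the low exon level of RB1 was not tested. RBL1 exon CPM were 48.1, 51.6 and 55.4 in DMSO 24 h, 59.0, 50.7 and 50.5 in cisplatin 24 h, 23.2, 25.5 and 26.9 in DMSO 72 h, and 30.4, 26.5 and 28.5 in cisplatin 72 h. All 6 libraries at 72 h lay below all 6 at 24 h, and the DMSO and cisplatin libraries of a time overlapped. RBL2 exon CPM were 98.2, 104 and 110 in DMSO 24 h, 103, 99.7 and 100 in cisplatin 24 h, 120, 122 and 130 in DMSO 72 h, and 136, 124 and 129 in cisplatin 72 h. Here all 72 h libraries lay above all 24 h libraries.

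**Figure D1:**
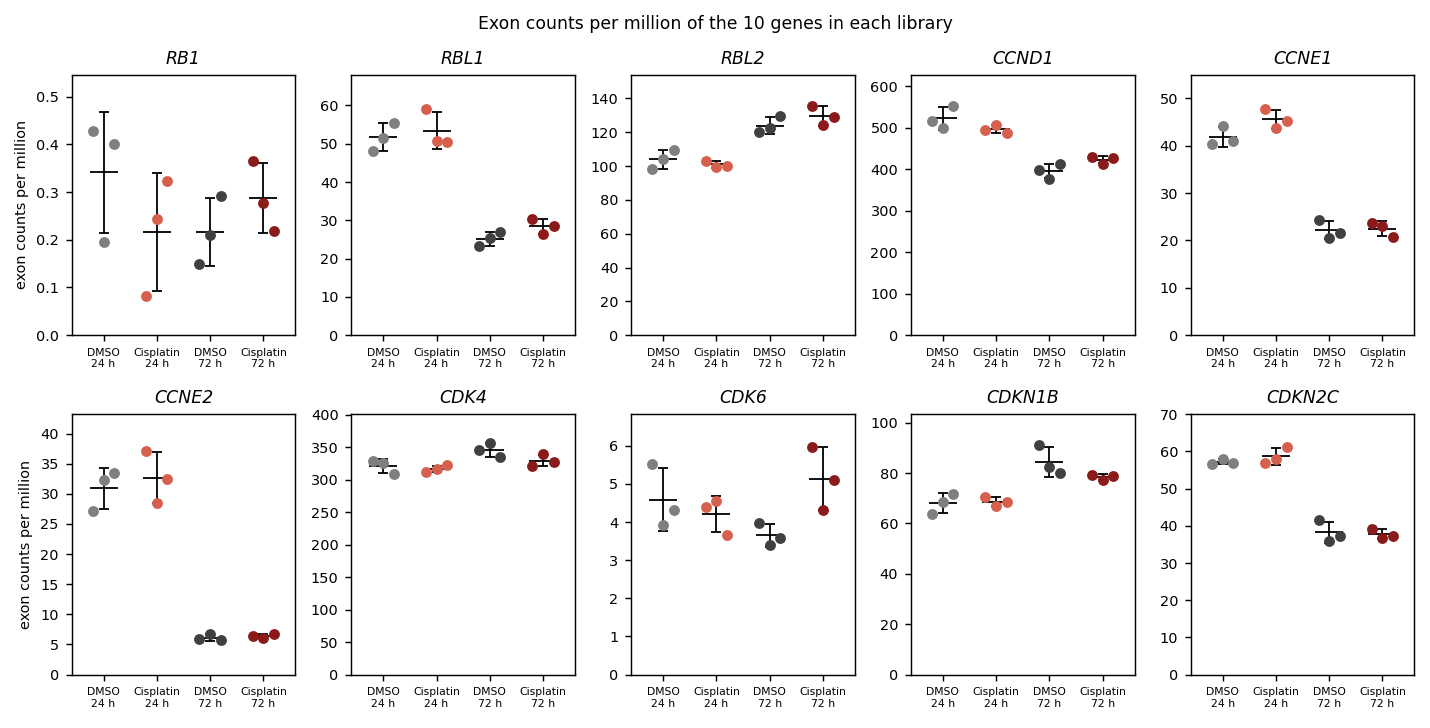
Exon CPM (y axis, from 0) for each of the 10 genes in the 4 groups (x axis). Points are single libraries, and the bar and whiskers are the mean and SD of 3 libraries. CCNE2 falls from 31.0 to 6.12 between 24 and 72 h in DMSO and from 32.7 to 6.39 in cisplatin, whereas CDK4 stays between 317 and 345.

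The ratio of RBL1 to RBL2, both per kb of exon and taken within a library, was 0.677 ± 0.010 (SD, n = 3) in DMSO 24 h and 0.720 ± 0.052 in cisplatin 24 h. At 72 h it was 0.276 ± 0.011 in DMSO and 0.299 ± 0.0074 in cisplatin. RBL1 (p107) is the form typical of cycling cells and RBL2 (p130) that of resting cells.

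CCND1 (chr11:69641156-69654474, plus strand) and CDK4 (chr12:57747727-57756013, minus strand) were the most abundant of the 10 genes. Per kb of exon, CDK4 averaged 106 and CCND1 96.6 CPM, at the 97.3rd and 96.9th percentiles of genes. CDK6 (chr7:92604921-92836573, minus strand), the other partner of cyclin D1, averaged 0.359, at the 28.4th percentile. Within a library, the CDK6 level per kb was 0.0027 to 0.0040 of that of CDK4 as group means. CCND1 exon CPM were 516, 499 and 552 in DMSO 24 h, 494, 508 and 489 in cisplatin 24 h, 398, 377 and 412 in DMSO 72 h, and 430, 413 and 427 in cisplatin 72 h. The 24 h libraries lay above all 72 h libraries, and the 3 cisplatin libraries at 72 h lay just above the 3 DMSO libraries. CDK4 exon CPM were 309 to 329 in DMSO 24 h, 312 to 322 in cisplatin 24 h, 334 to 356 in DMSO 72 h and 321 to 339 in cisplatin 72 h. The DMSO 72 h libraries lay above all 24 h libraries, and the cisplatin 72 h libraries overlapped each of the other groups. CDK6 exon CPM were 5.51, 3.93 and 4.31 in DMSO 24 h, 4.40, 4.55 and 3.67 in cisplatin 24 h, 3.97, 3.39 and 3.58 in DMSO 72 h, and 5.97, 4.32 and 5.11 in cisplatin 72 h. These rest on 68 to 297 exon counts per library.

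CCNE1 (chr19:29811991-29824312, plus strand) and CCNE2 (chr8:94879770-94896678, minus strand) encode the E-type cyclins. CCNE2 exon CPM were 27.1, 32.4 and 33.4 in DMSO 24 h, 37.1, 28.6 and 32.4 in cisplatin 24 h, 5.94, 6.72 and 5.70 in DMSO 72 h, and 6.44, 5.99 and 6.74 in cisplatin 72 h. The highest library at 72 h was far below the lowest at 24 h. CCNE1 exon CPM were 40.3, 44.2 and 41.1 in DMSO 24 h, 47.8, 43.8 and 45.1 in cisplatin 24 h, 24.3, 20.6 and 21.6 in DMSO 72 h, and 23.7, 23.0 and 20.7 in cisplatin 72 h. It too was lower in all 72 h libraries. CCNE2 fell further than CCNE1, so that the ratio of CCNE2 to CCNE1 per kb within a library went from 0.414 ± 0.040 (SD, n = 3) to 0.156 ± 0.024 in DMSO and from 0.401 ± 0.035 to 0.160 ± 0.020 in cisplatin.

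CDKN1B (chr12:12685498-12722369, plus strand) exon CPM were 63.7, 68.6 and 71.8 in DMSO 24 h, 70.4, 66.8 and 68.7 in cisplatin 24 h, 91.0, 82.3 and 80.0 in DMSO 72 h, and 79.1, 77.1 and 78.9 in cisplatin 72 h. The groups at 72 h did not overlap those at 24 h, nor each other. CDKN2C (chr1:50960745-50974634, plus strand) exon CPM were 56.7, 58.1 and 56.9 in DMSO 24 h, 56.9, 58.1 and 61.3 in cisplatin 24 h, 41.5, 36.0 and 37.3 in DMSO 72 h, and 39.2, 36.6 and 37.2 in cisplatin 72 h. Of these inhibitors of cyclin-dependent kinases, p27 transcripts were thus higher and p18 transcripts lower in every 72 h library than in every 24 h library.

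Overlapping genes limit some of these levels. Exons of genes on the opposite strand cover 44.2% of the exonic bases of CDK4, 37.1% of CCNE2, 20.4% of CDKN2C, 16.4% of RBL2, 10.4% of CCND1, 3.58% of RBL1 and 0.703% of CDK6, and none of RB1, CCNE1 or CDKN1B. The library kit keeps strand, but the strand setting of the counting is not stated, so reads of these opposite genes cannot be told apart from those of the 7 genes.

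**Figure D2:**
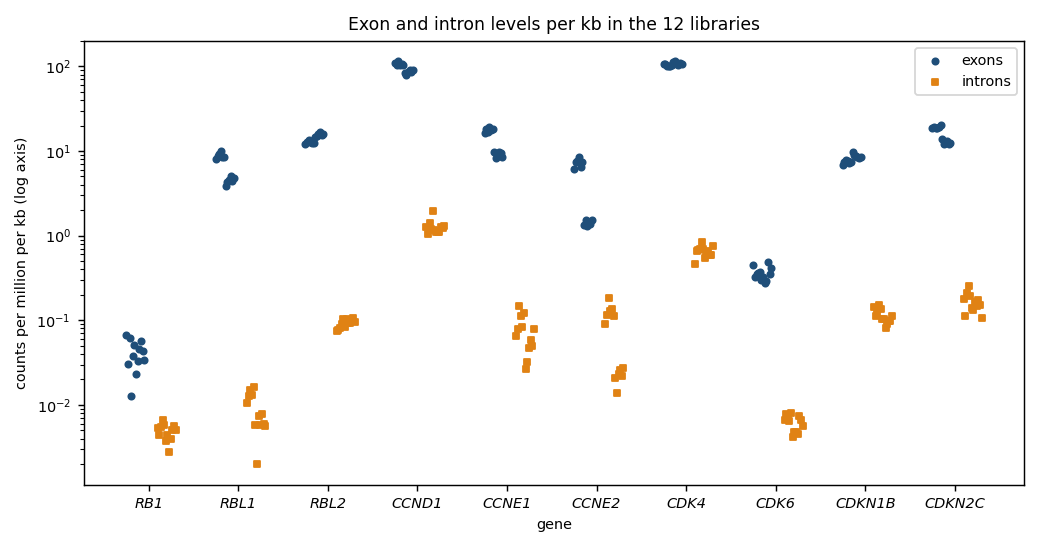
Exon (circles) and intron (squares) CPM per kb of exonic or intronic sequence (y axis, log scale) in each of the 12 libraries, for the 10 genes (x axis). CDK4 and CCND1 exons lie near 100, CDK6 exons near 0.359 and RB1 exons near 0.0412.

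In DMSO, 7 of the 10 genes passed the test of exon counts between 72 and 24 h (edgeR quasi-likelihood test, Benjamini-Hochberg adjusted p under 0.05 over 10444 genes), 5 lower and 2 higher. Over all genes tested, 65.1% were called, 32.5% lower and 32.6% higher, so a call alone is common here. The median log2 change of the 10 genes was −0.48, and that of all genes 0.01. CCNE2 changed by −2.35 on the log2 scale (SE 0.11, adjusted p = 7.7e-15), and 12 of the 10444 genes fell more. RBL1 changed by −1.03 (SE 0.08, adjusted p = 4.3e-11) and CCNE1 by −0.92 (SE 0.07, adjusted p = 1.2e-10). Only 2.68% and 3.71% of genes had a lower value than these. CDKN2C changed by −0.59 (SE 0.06, adjusted p = 1.8e-08) and CCND1 by −0.40 (SE 0.05, adjusted p = 1.1e-07). CDKN1B changed by 0.31 (SE 0.06, adjusted p = 9.5e-05) and RBL2 by 0.25 (SE 0.05, adjusted p = 0.00027), sizes that 27.9% and 31.5% of genes exceeded. CDK4 was at 0.10 (adjusted p = 0.078), CDK6 at −0.34 (adjusted p = 0.074) and RB1 at −0.55 with an interval of 2 SE from −1.66 to 0.57. Without DMSO 24 h replicate 2, CDK6 passed the test in DMSO at −0.45 (adjusted p = 0.033).

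In cisplatin, the same comparison again called 5 genes lower and 2 higher, against 63.5% called over all genes, 31.5% lower and 32.0% higher. CCNE2 changed by −2.38 (SE 0.10, adjusted p = 3.7e-15), with 6 genes lower. CCNE1 changed by −1.04 (SE 0.07, adjusted p = 1.2e-11), RBL1 by −0.93 (SE 0.08, adjusted p = 2.0e-10) and CDKN2C by −0.66 (SE 0.06, adjusted p = 2.3e-09). CCND1 changed less, by −0.25 (SE 0.05, adjusted p = 8.0e-05). RBL2 changed by 0.34 (SE 0.05, adjusted p = 7.7e-06) and CDKN1B by 0.17 (SE 0.06, adjusted p = 0.016). The call of CDKN1B was lost without cisplatin 24 h replicate 2 (adjusted p = 0.056) or cisplatin 72 h replicate 3 (adjusted p = 0.051). CDK4 (0.04), CDK6 (0.24, interval −0.07 to 0.55) and RB1 (0.43, interval −0.67 to 1.53) were not called. The 2 time comparisons use separate libraries, and the test of the difference between them (interaction) called no gene of the 10 at adjusted p under 0.05 and 0.00% of all genes. At an unadjusted p under 0.05, 2 of the 10 passed it, CDK6 (0.58, SE 0.23, adjusted p = 0.50) and CCND1 (0.15, SE 0.07, adjusted p = 0.51), where 9.43% of all genes did. DESeq2 called 0 as well.

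**Figure D3:**
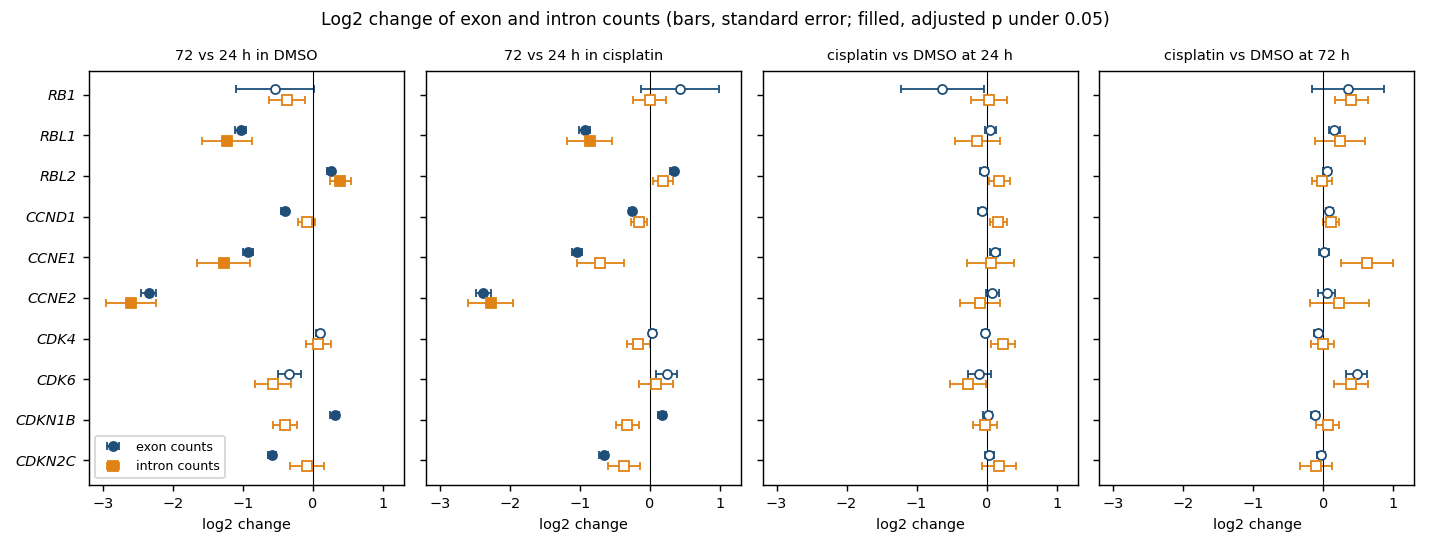
Log2 change (x axis) of exon counts (circles) and intron counts (squares) of the 10 genes in the 4 pairwise comparisons, 1 panel each. Bars are the SE, and filled symbols passed an adjusted p under 0.05 by edgeR. Filled symbols stand in the 2 time panels, with CCNE2 at −2.35 and −2.38 in exons, and none stands in the 2 cisplatin panels.

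Intron counts of the E-type cyclins and RBL1 fell as well. In DMSO, CCNE2 intron counts changed by −2.59 (SE 0.36, adjusted p = 3.1e-08), which only 4 of 9618 genes went below. They were 32, 44 and 46 at 24 h and 7, 5 and 13 at 72 h. CCNE1 changed by −1.28 (SE 0.38, adjusted p = 0.0063), RBL1 by −1.23 (SE 0.35, adjusted p = 0.0049) and RBL2 by 0.39 (SE 0.15, adjusted p = 0.037). These are 4 of the 10 genes, 3 lower and 1 higher, against 33.4% of all genes, 16.2% lower and 17.2% higher. The call of CCNE1 was lost without DMSO 24 h replicate 3 (adjusted p = 0.083), and that of RBL1 without DMSO 72 h replicate 1, which held 5 intron counts (adjusted p = 0.052). The call of RBL2 was lost without any one of 5 libraries, DMSO 24 h replicates 1, 2 and 3 and DMSO 72 h replicates 1 and 2, without a filter on low counts (adjusted p = 0.064) and with exon-based scaling (adjusted p = 0.12). Between 72 and 24 h in cisplatin, 2 genes were called, CCNE2 at −2.27 (SE 0.32, adjusted p = 7.1e-08) and RBL1 at −0.86 (SE 0.33, adjusted p = 0.035), against 31.8% of genes, 15.4% lower and 16.4% higher. RBL1 lost its call there without cisplatin 24 h replicate 1 or 2 or cisplatin 72 h replicate 2 or 3, with values from −0.82 to −0.57, and by DESeq2 (adjusted p = 0.079). CCNE1 was at −0.71 (adjusted p = 0.096). CDKN2C and CCND1, which fell in exons, had intron values of −0.08 and −0.09 in DMSO (adjusted p = 0.83 and 0.62) and of −0.36 and −0.15 in cisplatin (adjusted p = 0.23 and 0.35).

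**Figure D4:**
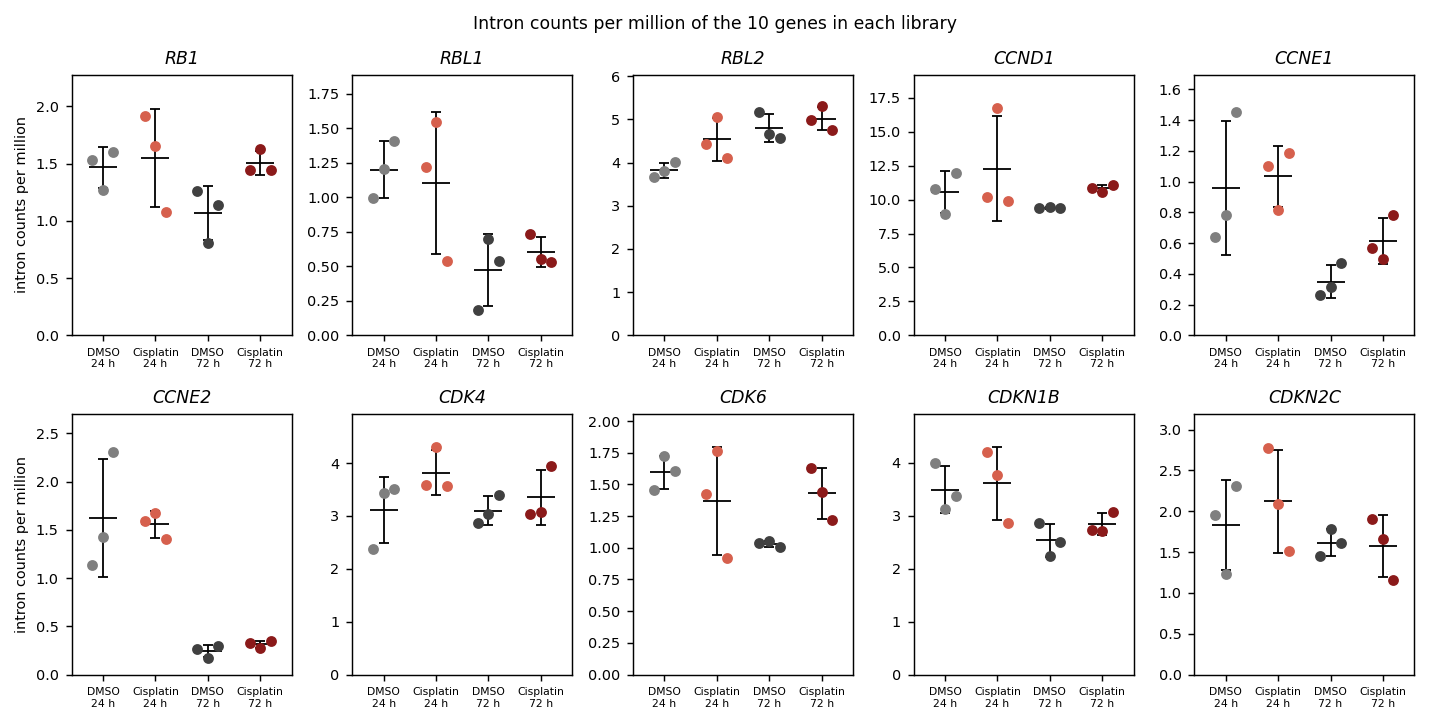
Intron CPM (y axis, from 0) for the 10 genes in the 4 groups (x axis), with points for libraries and bars and whiskers for the mean and SD of 3. CCNE2 introns go from 1.62 to 0.242 between 24 and 72 h in DMSO, and 1 cisplatin 24 h library of CCND1 stands at 16.7 beside 10.2 and 9.88.

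CDKN1B was the 1 gene of the 10 whose exon/intron ratio changed with time by edgeR. The ratio was 16.0, 22.0 and 21.4 in DMSO 24 h, 16.8, 17.7 and 24.0 in cisplatin 24 h, 31.8, 36.7 and 31.9 in DMSO 72 h, and 29.1, 28.5 and 25.7 in cisplatin 72 h. Every 72 h library was above every 24 h library. The log2 change was 0.77 in DMSO (SE 0.18, adjusted p = 0.0045), where 11.5% of 9393 genes were called (8.08% higher and 3.37% lower), and 0.57 in cisplatin (SE 0.17, adjusted p = 0.026), where 12% were called (8.39% higher and 3.57% lower). Exon counts rose, while intron counts did not pass the test, at −0.40 in DMSO (adjusted p = 0.075) and −0.32 in cisplatin (adjusted p = 0.14). With exon-based scaling the intron value in DMSO was −0.47 and passed (adjusted p = 0.048). The call in cisplatin was lost without cisplatin 24 h replicate 1 or 2 or cisplatin 72 h replicate 1 or 2, with values of 0.48 to 0.54. CCNE2, whose exon and intron counts both fell, had ratio changes of 0.29 (interval −0.41 to 0.99) and −0.01 (interval −0.60 to 0.58).

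By logistic regression, the test named in the study's methods, 3 of the 10 ratios differed between 72 and 24 h in DMSO, where 33.7% of genes did, 22.5% higher and 11.1% lower. They were CDKN1B (0.77, adjusted p = 2.7e-08), CCND1 (−0.24, adjusted p = 0.0034) and CDKN2C (−0.46, adjusted p = 0.022). CCND1 lost its call there without DMSO 24 h replicate 2 (adjusted p = 0.14), and CDKN2C without DMSO 24 h replicate 2 or DMSO 72 h replicate 2 or 3. In cisplatin the 3 were CDKN1B (0.60, adjusted p = 9.4e-07), CDK4 (0.33, adjusted p = 0.0053) and RBL2 (0.23, adjusted p = 0.038), against 40.6% of genes, 29.0% higher and 11.6% lower. CDK4 lost its call without cisplatin 24 h or 72 h replicate 2, and RBL2 without cisplatin 24 h replicate 2 or cisplatin 72 h replicate 1 or 3. Without cisplatin 24 h replicate 1, CCND1 (0.18, adjusted p = 0.019) and CDKN2C (−0.44, adjusted p = 0.031) passed as well. Without cisplatin 24 h replicate 2, CCND1 passed in the opposite direction (−0.32, adjusted p = 0.00040). This regression takes each fragment as independent. With a dispersion for each gene (quasi-binomial model), none of the 10 passed in any comparison. Few of all genes passed under that model, so this says little about the 10 genes themselves.

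Cisplatin against DMSO gave no call among the 10 genes by edgeR at either time. At 24 h, 0.00% of all genes were called in exon counts, 0.0208% in intron counts and 0.00% in the ratio, and at 72 h 0.0287%, 0.0416% and 0.0213%. DESeq2 called none of the 10 in exon or intron counts either. At an unadjusted p under 0.05, none of the 10 passed in exon, intron or ratio at 24 h, and at 72 h CDK6 exon counts alone did, beside the following shares of all genes. In exon counts 2.49% passed at 24 h and 12.6% at 72 h, in intron counts 5.00% and 6.46%, and in the ratio 6.33% and 6.24%. CDK6 exon CPM were 3.65 ± 0.30 (SD, n = 3) in DMSO 72 h and 5.13 ± 0.83 in cisplatin 72 h, with no overlap of the groups, and the log2 change was 0.47 (SE 0.15, adjusted p = 0.24). It held in 3 of 3 cisplatin libraries, and CDK6 intron counts were at 0.39 (adjusted p = 0.84).

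The intervals show how large a change each gene could still have. For exon counts at 24 h, the intervals of 2 SE were −0.11 to 0.27 for CCNE2, −0.02 to 0.27 for CCNE1, −0.10 to 0.20 for RBL1, −0.15 to 0.07 for RBL2 and −0.11 to 0.14 for CDKN1B. For CDK4, CCND1 and CDKN2C they were −0.12 to 0.08, −0.17 to 0.03 and −0.08 to 0.16, and for CDK6 −0.44 to 0.23. RB1 had −1.82 to 0.56, so that a 2-fold fall could not be seen at its depth of 2 to 19 counts. At 72 h the intervals were −0.19 to 0.28 for CCNE2, 0.00 to 0.31 for RBL1 (adjusted p = 0.41), −0.24 to 0.00 for CDKN1B (adjusted p = 0.40) and −0.67 to 1.37 for RB1. For CCNE1, RBL2 and CDKN2C they were −0.14 to 0.16, −0.06 to 0.16 and −0.16 to 0.09, and for CDK4 and CDK6 −0.18 to 0.02 and 0.17 to 0.78. CCND1 was at 0.08 (interval −0.01 to 0.18) with non-overlapping groups (adjusted p = 0.49).

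The logistic regression called 3 of the 10 ratios lower in cisplatin at 24 h, where 11.5% of all genes were called in either direction and 10.7% as lower. CCND1 was at −0.40 (SE 0.07, adjusted p = 1.4e-06), CDK4 at −0.37 (SE 0.12, adjusted p = 0.028) and RBL2 at −0.33 (SE 0.11, adjusted p = 0.042). CCND1 rested on 1 library. Its intron counts were 250, 618 and 183 in cisplatin 24 h, beside exon counts of 12126, 18742 and 9054, so that replicate 2 had a ratio of 30.3 and the others 48.5 and 49.5, while DMSO 24 h had 47.8, 55.9 and 46.1. Without cisplatin 24 h replicate 2 the value was −0.03 (adjusted p = 0.90), and CDK4 and RBL2 lost their calls too (adjusted p = 0.40 and 0.48). CDK4 also lost its call without DMSO 24 h replicate 1 (adjusted p = 0.43), and RBL2 without any one of the 3 DMSO 24 h libraries. At 72 h no gene of the 10 was called, where 11.4% of genes were, and 2 passed at an unadjusted p under 0.05, as did 25.1% of all genes.

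The other genes of the pathway came from a list of 36, of which 30 could be tested in exon counts. Of the list, the inhibitors CDKN2A (p16) and CDKN2B (p15) and the D-type cyclin CCND2, had 0 exon and 0 intron counts in all 12 libraries, where 3 counts, the limit that a count of 0 allows, were 0.0436 to 0.162 CPM. CDKN1C (p57) had 0 to 10 exon counts and was not tested. Counts of CDKN1A (p21) were not analysed here, and CDKN2D (p19) had intron counts only. CDKN1B and CDKN2C were therefore the 2 inhibitors of cyclin-dependent kinases, among those listed, with a test of exon counts.

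Of the 30 genes, 18 fell and 5 rose between 24 and 72 h in DMSO, with a median log2 change of −0.32, where 32.5% of all genes fell and 32.6% rose, with a median of 0.01. In cisplatin 15 fell and 6 rose, with a median of −0.26, where 31.5% of all genes fell and 32.0% rose, with a median of 0.02. By role in DMSO, 6 of 10 E2F and DP genes fell and 2 rose, as did 5 and 1 of 7 genes of the DREAM complex and its MuvB core, 5 and 1 of 8 genes of cyclin turnover and activation, and 2 and 1 of 5 further cyclins and kinases. MYBL2 (B-Myb, a partner of MuvB in S phase) went from 301 ± 14.8 to 102 ± 2.38 exon CPM (SD, n = 3) in DMSO, and its intron counts changed by −2.11 (SE 0.17, adjusted p = 1.2e-15). CDC25A, the phosphatase that activates CDK2, went from 52.9 ± 1.49 to 12.4 ± 0.711 (log2 change −2.09, SE 0.08, adjusted p = 1.2e-16). E2F2, an activating E2F, went from 34.8 ± 4.80 to 8.19 ± 0.448 (−2.08, SE 0.10, adjusted p = 2.5e-14). E2F1 went from 153 ± 3.02 to 61.1 ± 1.71, and its intron counts changed by −2.09 (SE 0.14, adjusted p = 5.1e-18). In cisplatin the exon changes were −1.92 for CDC25A and −1.78 for E2F2, and the intron changes −2.0 for E2F1 and −1.77 for MYBL2. In intron counts 14 of the 30 fell and 1 rose in DMSO, where 16.2% of all genes fell and 17.2% rose, and 12 fell and 1 rose in cisplatin, where 15.4% fell and 16.4% rose. In the ratio by edgeR, 3 rose and 1 fell in DMSO and 3 rose in cisplatin, near the 11.5% and 12% of all genes called.

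Of 12 E2F target genes, 11 could be tested and all 11 fell in exon counts, in DMSO (median −1.30, where 32.5% of all genes fell) and in cisplatin (median −1.07, where 31.5% fell). Counts of MCM3 were not analysed here. This list, like the others, was chosen with earlier results of these data known. RRM2, the small subunit of ribonucleotide reductase, went from 697 ± 40.4 to 176 ± 3.88 exon CPM (SD, n = 3) in DMSO and from 705 ± 34.0 to 202 ± 6.06 in cisplatin. PCNA, the sliding clamp of DNA polymerase, went from 303 ± 4.54 to 92.2 ± 9.10 in DMSO (log2 change −1.72, SE 0.06, adjusted p = 6.5e-17) and by −1.64 in cisplatin. CDC6, which licenses origins, went from 112 ± 7.92 to 36.5 ± 2.73 in DMSO, CDT1, its partner, from 110 ± 8.95 to 63.2 ± 5.94, and MCM2, of the replicative helicase, from 438 ± 17.8 to 211 ± 2.31 in cisplatin. In intron counts 10 of the 11 fell in each medium, beside 16.2% of all genes in DMSO and 15.4% in cisplatin. By the ratio 2 rose in DMSO and 1 in cisplatin, where 8.08% and 8.39% of all genes rose. CCNE2 at −2.35 was below every one of the 11 in DMSO, where they reached from −1.98 to −0.62. RBL1 and CCNE1 lay inside that range.

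**Figure D5:**
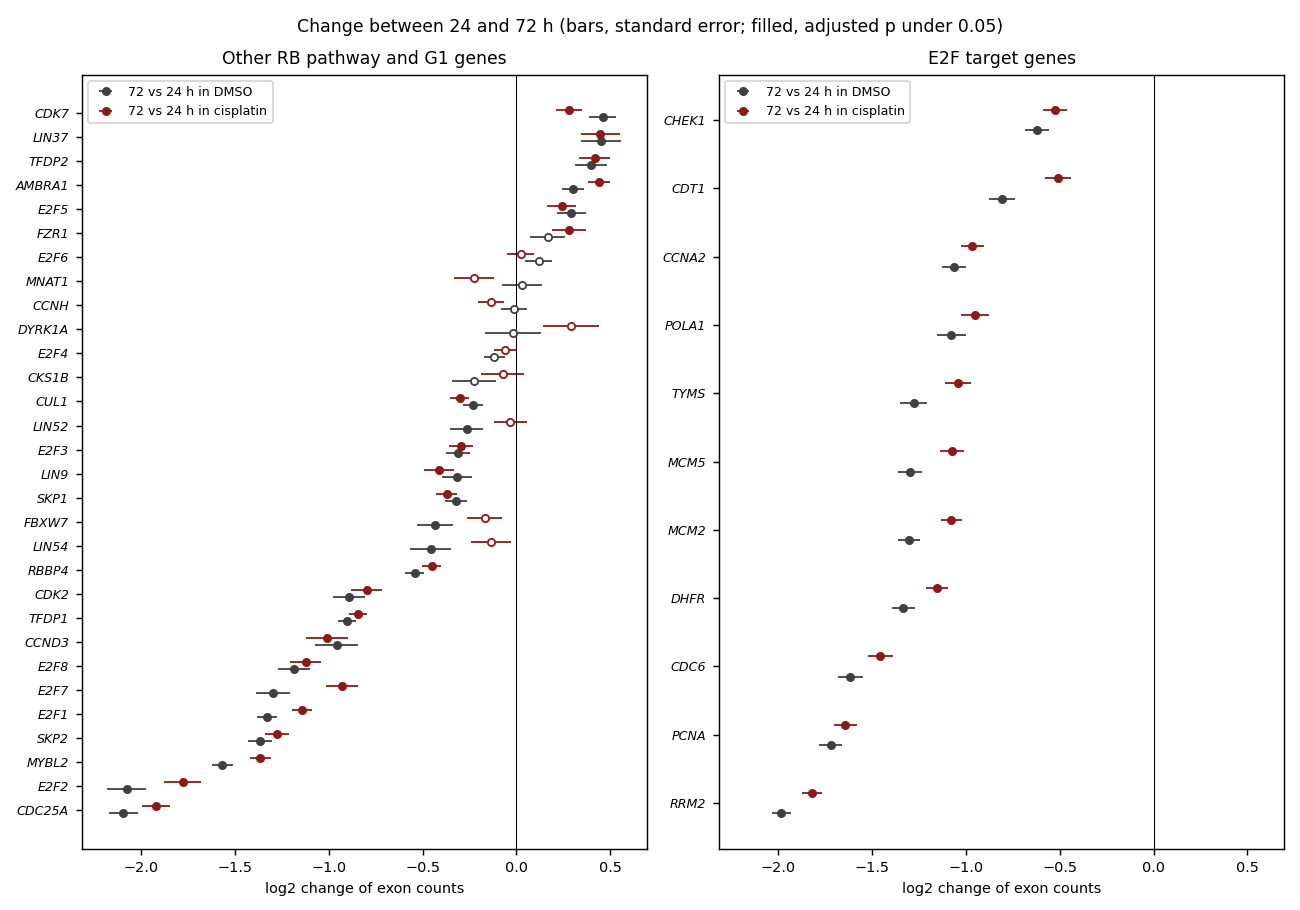
Log2 change of exon counts between 24 and 72 h (x axis) for the 30 other RB pathway and G1 genes tested (left) and the 11 E2F target genes tested (right), in DMSO and in cisplatin. Bars are the SE and filled points passed an adjusted p under 0.05 by edgeR. All 11 E2F target genes are to the left of 0, and the pathway genes reach from −2.09 to 0.46 in DMSO.

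Between cisplatin and DMSO, none of the 30 pathway genes and none of the 11 E2F target genes was called in exon counts, intron counts or the ratio by edgeR. At an unadjusted p under 0.05, 1 of the 30 and 0 of the 11 passed in exon counts at 24 h, and 6 of the 30 and 6 of the 11 at 72 h, where 2.49% and 12.6% of all genes did. The median log2 change at 72 h was 0.06 for the 30 and 0.18 for the 11, with 10 of the 11 above 0, beside 0.05 for the 10 genes described first and 0.00 for all genes. The interaction in exon counts called 0 of the 30 and 0 of the 11, with values above 0 for 20 and 11 of them. At an unadjusted p under 0.05, 5 of the 30 and 6 of the 11 passed it, where 9.43% of all genes did. Each comparison shares a group of libraries with another, so these values are not independent of the time comparisons. By logistic regression, 8 of the 30 (7 lower and 1 higher) and 1 of the 11 ratios (lower) differed at 24 h, and 4 (3 lower and 1 higher) and 1 (lower) at 72 h, where 11.5% and 11.4% of all genes did. The quasi-binomial model called 0 of all genes at either time, and without cisplatin 24 h replicate 2 the regression called 245 in place of 1110 genes at 24 h.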

How the data were processed

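RNA of TYK-nu cells in 4 groups of 3 was sequenced with a directional poly(A) kit on 1 lane. The authors checked reads with FastQC 0.11.8, trimmed them with Trim Galore 0.6.0, aligned them to GRCh38 with HISAT2 2.1.0 and counted them with HTSeq-count on exon (intersection-strict) and intron (union) annotations made from Ensembl release 98. The deposited values are raw counts per gene and library, for exons and introns separately, not normalized and not pooled; the strand option is not given in the sources used here. Of 17508 genes, 423 had no exon and 913 no intron entry. Symbols, positions and lengths came from GENCODE release 44 on GRCh38 for 17485 genes, and promoter windows from RefSeq (GRCh38.p14).

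Exon and intron counts were each tested with edgeR 4.0.16 (R 4.3.3; filterByExpr, TMM, glmQLFit, glmQLFTest) with the 12 libraries in one fit. The exon/intron ratio was tested with both counts of a library sharing its total, 1 term per library and a minimum of 10 counts of each kind in 3 or more libraries. Logistic regression (binomial, Wald test) was run on the 6 libraries compared where each of them held 1 or more counts of both kinds for the gene. P-values were adjusted by Benjamini-Hochberg over all genes tested, with a threshold of 0.05. Printed log2 changes are edgeR's, with its default prior count, and intervals are 2 SE to each side. DESeq2 1.42.0 was an alternative, with other scalings, filters, fits to 6 libraries, a replicate block and each library left out. Scripts were tested on simulated data. Levels and ratios used Python 3.11.15, numpy 2.4.6, scipy 1.17.1, pandas 2.3.3 and matplotlib 3.10.9. Library totals were 18526830 to 68753262; the reads carry no molecular identifiers, so the floor of 3 counts covers counting error only.

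The genes and lists were chosen with earlier results of these data known. All 10 genes were named. Of the 36 other pathway genes and 12 E2F target genes, at most 4 per list and comparison were named, those with the largest log2 change among genes that passed by edgeR with groups that did not overlap; genes named for 0 or missing counts were chosen after their values were seen. Counts of MCM3, CDKN1A, MUC16, MSLN and CD14 were not analysed here. No library was left out of the main comparisons.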

Additional observations from a re-analysis of the deposited data

How the results depend on the processing

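No called change of exon or intron counts among the 10 genes turned direction under any alternative run, and exon counts of CCNE2, CCNE1, RBL1, CDKN2C, CCND1 and RBL2 kept their calls in both time comparisons. Numbers of the 10 genes called that moved by over 1.5 times were as follows. The quasi-binomial model gave 0 in place of 3 ratios between 72 and 24 h in DMSO, between 72 and 24 h in cisplatin and for cisplatin at 24 h, and DESeq2 gave 1 in place of 2 genes for intron counts between 72 and 24 h in cisplatin. Leaving out 1 library gave 1 to 3 (DMSO), 2 to 5 (cisplatin) and 0 to 3 (cisplatin at 24 h) ratios by logistic regression, 0 to 1 by edgeR in cisplatin, and 2 to 4 genes in DMSO and 1 to 2 in cisplatin for intron counts. The logistic value of CCND1 between 72 and 24 h in cisplatin, 0.04, went from −0.32 (without cisplatin 24 h replicate 2) to 0.18 (without cisplatin 24 h replicate 1), both called, when libraries were left out. Signs of values that were never called turned 223 times.

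Over all genes, dropping the filter on low counts gave 7, 154 and 20 in place of 0, 3 and 0 genes for exon counts (cisplatin at 24 h, at 72 h and interaction) and 5, 19 and 11 in place of 2, 4 and 4 for intron counts. DESeq2 gave 93 genes for exon counts at 72 h and 0 for intron counts at 24 h and the interaction, as did exon-based scaling for both of the latter. The fit to 6 libraries gave 26 genes for intron counts at 72 h. A minimum of 1 count gave 2, 13 and 6 in place of 0, 2 and 0 ratios, and the quasi-binomial model 64, 97, 0 and 0 in place of 3278, 3984, 1110 and 1144. Without 1 library, exon counts at 72 h gave 0 to 72 genes, and the logistic ratio at 24 h fell to as few as 245 genes, without cisplatin 24 h replicate 2.

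Deviations from the group means were not shared by libraries of one replicate number (correlations over genes of −0.108 to 0.102), and what a number stands for is not given. With the replicate block, 7 of the 10 genes were called in exon counts in each time comparison, as without it. Without the block 65.1% of all genes were called in DMSO and 63.5% in cisplatin, so 7 of 10 is near the general share. The block gave 2 in place of 3 logistic ratios in DMSO (CDKN2C at −0.41, adjusted p = 0.051) and for cisplatin at 24 h (RBL2 at −0.32, adjusted p = 0.053). Over all genes it gave 0 in place of 2 and 4 for intron counts at 24 h and the interaction. RB1, with 2 to 19 exon counts, and the introns of RBL1, CCNE1 and CCNE2 are limited by depth.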
